A study of Mus musculus with 11 samples.

Results

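The 43 genes described here carry glucose from the cell surface through glycolysis to lactate or to the mitochondrial pyruvate dehydrogenase complex. They were taken from a fixed list, by mouse gene symbol, out of 55487 genes in the deposited count tables. All 43 had a row, and 39 passed the filter on low counts, among 10505 genes tested in all. Pfkfb2, Aldoc, Eno2 and Pdk3 did not pass it. RNA was measured in whole gastrocnemius, a mixed hindlimb muscle, by QuantSeq 3' mRNA FWD sequencing, in which each read is a tag from near the end of a polyadenylated transcript. The 4 double-knockout mice carried floxed Raptor and mTOR alleles, the 3 Raptor-knockout mice carried floxed Raptor, and the 4 wild-type mice were the comparison. Every group, wild type included, was labelled as tamoxifen-treated. Tamoxifen was given in chow for 7 weeks from an age of 3 months, and muscle was taken 7 months after the start. The Cre recombinase depended on tamoxifen, and the human skeletal actin promoter drove it, so the deletion was aimed at muscle fibres, while the RNA came from every cell of the muscle. Raptor marks mTOR complex 1 and recruits its substrates, while mTOR is the kinase of both mTOR complexes. The series compares the genotypes to ask what the loss of each does to adult muscle.

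Levels are CPM, counts-per-million scaled by TMM, and each library is 1 mouse. Values of single libraries are listed in the order of replicates 1 to 4, or 1 to 3 for the Raptor knockout, and replicate numbers have no other meaning. Library totals ran from 2791339 to 3536731 counts in the double knockout, 3223797 to 3764879 in the Raptor knockout and 3134575 to 6328533 in wild type. The 43 genes held 2.11% to 2.64% of a library's counts. Rptor stood at 4.83 ± 0.566 CPM in the double knockout, 4.57 ± 0.630 CPM in the Raptor knockout and 9.83 ± 0.946 CPM in wild type (SD, n = 4, 3 and 4). Mtor stood at 35.9 ± 3.36 CPM in the double knockout, 20.6 ± 2.24 CPM in the Raptor knockout and 20.8 ± 5.95 CPM in wild type. These tags need not cover the deleted part of either gene. Wild-type replicate 4 stood apart, with a chi-square per degree of freedom of 39.9 to 45.6 against the other wild-type libraries, which had 8.84 to 18.9 among themselves. Raptor-knockout replicate 2 stood apart too, with 24.97 and 26.03 against Raptor-knockout replicates 1 and 3, which had 3.34 between them. Its 6 erythroid markers summed to 10015 CPM, where the sums were 2612 to 3174 CPM in the double knockout, 2177 and 4702 CPM in the other Raptor-knockout libraries and 1666 to 3363 CPM in wild type. Double-knockout replicates 3 and 4 came from the smaller of 2 sequencing runs. Xist, which is made from the silenced X of female cells, was present in double-knockout replicates 1 to 3 and wild-type replicate 3, and in no Raptor-knockout library. Of the 43 genes, Pfkfb1, Pgk1, Pdha1 and Pdk3 lie on the X chromosome.

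Skeletal muscle takes up most of the glucose cleared after a meal. The transporter GLUT4 (Slc2a4) moves to the cell surface on insulin or contraction, hexokinase traps the sugar as hexose phosphate, and phosphofructokinase commits it to glycolysis. The bifunctional Pfkfb enzymes make and break the allosteric activator of phosphofructokinase. Pyruvate then either becomes lactate, which leaves through the monocarboxylate transporters, or enters the mitochondrion through a carrier built of Mpc1 and Mpc2. Inside, pyruvate dehydrogenase is switched off by its kinases (Pdk) and switched on again by its phosphatases (Pdp). Fast fibres lean on glycolysis, and several steps have an isoform found mainly in muscle beside one found in most other tissues.

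Against wild type, the double knockout had 4 of 39 tested genes higher and 15 lower at an edgeR adjusted p under 0.05. That is 10.3% higher and 38.5% lower, where 13% of all tested genes were higher and 13.7% were lower. The Raptor knockout had 3 higher and 7 lower, 7.69% and 17.9% of the tested members, beside 8.73% and 9.43% of all tested genes. The median log2 fold change of the tested members was -0.42 in the double knockout and -0.25 in the Raptor knockout, where the medians over all tested genes were 0.02 and 0.00. At an unadjusted p under 0.05 there were 26 members in the double knockout and 16 in the Raptor knockout, beside 37.9% and 31.7% of all tested genes. Both comparisons use the same 4 wild-type libraries. Gapdh and Pgk1 were higher in both knockouts, and Pfkm, Pfkfb1, Pfkfb3, Slc16a3, Mpc1, Pdp1 and Gpd2 were lower in both. Hk1 and Gpi1 were called higher, and Slc2a1, Slc2a3, Pgam2, Ldhb, Slc16a1, Mpc2, Pdk1 and Pdp2 lower, in the double knockout against wild type and not in the Raptor knockout against wild type. Txnip was called higher in the Raptor knockout alone. Between the 2 knockouts no member passed the test, and a call in one knockout and not in the other does not show that they differ.

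The counts depended on the scaling and on single libraries, and those over all tested genes moved too. In the reported fit 1367 of 10505 genes were higher and 1435 lower in the double knockout, and 917 and 991 in the Raptor knockout. Library totals in place of TMM moved the median of all tested genes up by 0.23 (double knockout) and 0.20 (Raptor knockout) on the log2 scale. With them, 8 members were higher and 9 lower in the double knockout, and 5 were higher and 5 lower in the Raptor knockout. Over all tested genes 2421 were then higher and 844 lower in the double knockout, and 1638 and 573 in the Raptor knockout. Without the 2 libraries of the smaller run the double knockout had 2 higher and 10 lower, beside 945 and 974 of 10764 genes tested. The calls of Slc2a1, Slc2a3, Hk1, Gpi1, Pfkfb3, Pgam2, Ldhb and Pdk1 ended and Hk2 was called lower. With Xist as a covariate the double knockout had 3 higher and 8 lower, beside 953 and 1040 of all tested genes. The calls of Slc2a3, Hk1, Pfkfb3, Pgam2, Ldhb, Slc16a1, Slc16a3, Pdk1 and Pdp2 ended, while Pdk4 was called lower. Without wild-type replicate 4 the double knockout had 7 members higher and 14 lower, and the Raptor knockout had 6 higher and 7 lower. Over all tested genes these were 1655 and 1689 in the double knockout and 1203 and 1210 in the Raptor knockout. Without wild-type replicate 3 the Raptor knockout had 11 lower, beside 998 of all tested genes. With Raptor-knockout replicate 3 left out it had 1 higher, beside 597 of all tested genes. Without Raptor-knockout replicate 2 it had 3 higher and 7 lower, beside 818 and 1024 of all tested genes. The calls of Pfkfb3 and Slc16a3 ended, and Hk2 and Pdp2 were called lower. In the libraries without Xist, where 1 double-knockout library is left and is assumed to vary like the other groups, the double knockout had 1 member higher and 5 lower.

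**Figure D1:**
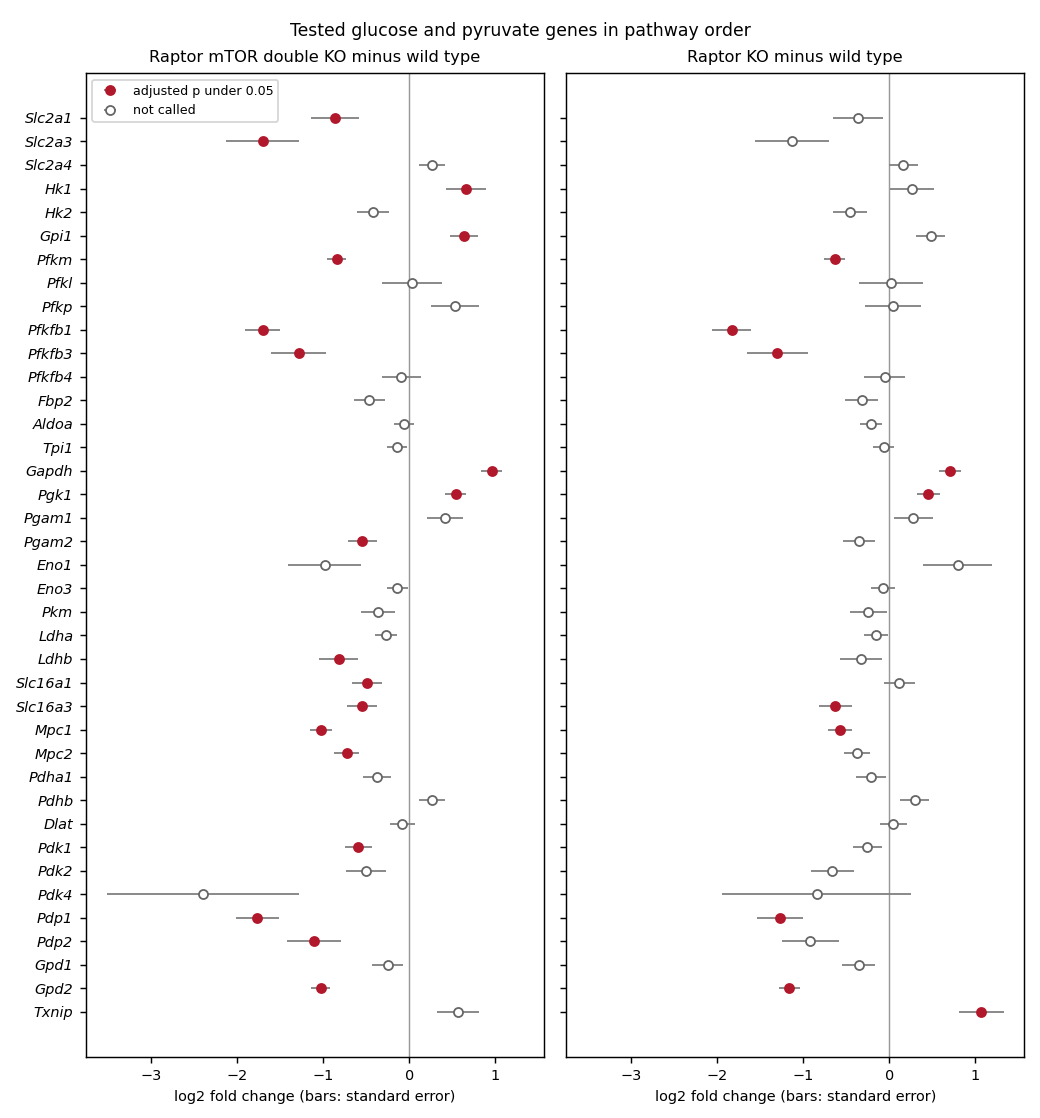
Log2 fold changes (x axis) of the 39 tested genes, listed down the page in pathway order, for the double knockout minus wild type (left panel) and the Raptor knockout minus wild type (right panel). Points are edgeR estimates, bars are standard errors, and filled points have an adjusted p under 0.05; the falls of Pfkfb1, Mpc1, Pdp1 and Gpd2 and the rises of Gapdh and Pgk1 are filled in both panels.

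Marker RNA of fibre types and of some other cells differed with genotype. In bulk muscle, fewer cells of a type cannot be told apart from less RNA per cell. Of 13 fast-fibre marker genes, 8 were lower and 2 higher in the double knockout against wild type. In the Raptor knockout 7 were lower and 2 higher, also against wild type. The fast myosins went different ways: in the double knockout Myh1 rose 2.76-fold, Myh4 fell 1.28-fold and Myh2 was not called. In the Raptor knockout Myh1 rose 2.02-fold, Myh4 fell 1.37-fold and Myh2 was not called. All 13 fast-fibre markers together summed to 77961 to 91613 CPM in the double knockout, 78145 to 87045 CPM in the Raptor knockout and 111954 to 120004 CPM in wild type. Of 12 slow-fibre markers, 8 were higher in each knockout, with summed levels of 2304 to 3743 CPM in the double knockout, 3256 to 3341 CPM in the Raptor knockout and 1223 to 2046 CPM in wild type. Of 9 developing-fibre markers, 5 were higher in each knockout, with sums of 305 to 345 CPM in the double knockout, 194 to 225 CPM in the Raptor knockout and 31.8 to 57.7 CPM in wild type. Macrophage markers were higher for 8 of 14 genes in the double knockout and 6 in the Raptor knockout, with sums of 194 to 259 CPM in the double knockout, 138 to 281 CPM in the Raptor knockout and 90.8 to 157 CPM in wild type. Fibroblast markers were higher for 8 of 10 genes in the double knockout and 4 in the Raptor knockout, with sums of 1999 to 2216 CPM in the double knockout, 1777 to 1875 CPM in the Raptor knockout and 1026 to 1659 CPM in wild type. No marker of these lists was at 0 in all libraries. None of the 10 endothelial markers was called, the neutrophil marker Ly6g was at 0 in all libraries, and no lymphocyte marker passed the filter. Of the other lists, 1 of 7 smooth muscle and pericyte markers was higher in each knockout, 2 of 8 Schwann cell markers in the double knockout and 1 of 6 erythroid markers in the Raptor knockout, with no adipocyte or satellite cell marker called. The 12 muscle-fibre markers together stood at 98156 to 121050 CPM in the double knockout, 96742 to 110773 CPM in the Raptor knockout and 110213 to 134901 CPM in wild type. The part of fibre type and of other cells in the results below was not tested.

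The promoters of the 9 genes called in both knockouts were searched for motifs known from glycolytic genes. RefSeq promoter windows on GRCm38.p6, 250 bases before to 50 after the first listed start, were found for 39 of the 43 members and for 8 of those 9; Gpd1, Pdp1, Slc2a3 and Slc2a4 had no entry. Pfkm and Pfkfb1 have 4 listed starts each, and Pfkfb3, Mpc1 and Gpd2 have 2 each, of which only the first was searched. Which start is used in this muscle was not tested. The core of the hypoxia response element, ACGTG, was searched on both strands. It occurred in 19.7% of 27025 promoters of the same length, in 17 of the 39 member promoters, and in 5 of the 8 (Pfkm, Pfkfb3, Gapdh, Pgk1 and Slc16a3). It lies within CACGTG, the E-box of carbohydrate response elements, which occurred in 7.2% of all promoters, in 7 of the 39 and in 1 of the 8 (Pfkm). The motif of estrogen-related receptors, AAGGTCA, occurred in 4.7%, in 2 of the 39 and in 0 of the 8, and the general E-box CANNTG in 72.1%, in 28 of the 39 and in 5 of the 8. Shown here are 2 members that were higher in both knockouts, Pgk1 (chrX:106186850-106187149 on the plus strand) and Gapdh (chr6:125165724-125166023 on the minus strand), and 2 that were lower, Slc16a3 (chr11:120948817-120949116 on the plus strand) and Pfkfb3 (chr2:11553880-11554179 on the minus strand). Each is written 5′ to 3′ along its gene, and capitals mark ACGTG in either orientation (CACGT on the other strand).
Pgk1: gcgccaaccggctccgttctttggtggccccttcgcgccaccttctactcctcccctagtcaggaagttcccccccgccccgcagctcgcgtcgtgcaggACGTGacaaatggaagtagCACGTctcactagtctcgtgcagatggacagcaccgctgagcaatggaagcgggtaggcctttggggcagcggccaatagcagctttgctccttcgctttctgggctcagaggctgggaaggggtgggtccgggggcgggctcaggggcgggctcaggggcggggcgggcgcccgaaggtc
Gapdh: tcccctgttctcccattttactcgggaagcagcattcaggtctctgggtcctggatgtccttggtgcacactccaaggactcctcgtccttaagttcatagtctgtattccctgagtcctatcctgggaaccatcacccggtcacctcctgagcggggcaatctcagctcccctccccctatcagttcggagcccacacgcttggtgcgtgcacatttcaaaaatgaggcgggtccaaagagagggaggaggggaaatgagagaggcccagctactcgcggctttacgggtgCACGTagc
Slc16a3: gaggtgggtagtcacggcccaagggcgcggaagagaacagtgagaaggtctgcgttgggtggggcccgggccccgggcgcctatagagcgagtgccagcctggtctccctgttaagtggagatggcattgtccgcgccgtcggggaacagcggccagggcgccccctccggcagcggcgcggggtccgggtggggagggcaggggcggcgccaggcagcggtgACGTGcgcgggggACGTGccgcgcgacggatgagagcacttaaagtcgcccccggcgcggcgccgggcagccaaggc
Pfkfb3: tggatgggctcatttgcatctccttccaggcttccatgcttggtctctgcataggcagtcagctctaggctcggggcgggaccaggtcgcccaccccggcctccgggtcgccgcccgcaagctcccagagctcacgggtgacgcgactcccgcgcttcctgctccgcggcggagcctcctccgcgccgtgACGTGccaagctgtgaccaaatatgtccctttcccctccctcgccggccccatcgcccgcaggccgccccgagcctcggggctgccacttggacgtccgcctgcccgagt
The same letters were thus present in promoters of genes that were higher and of genes that were lower.

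Among the glucose transporters, the insulin-responsive Slc2a4 was not called, and Slc2a1 and Slc2a3 were lower in the double knockout. Slc2a4 (GLUT4) stood at 282, 333, 274 and 364 CPM in the double knockout, 291, 313 and 273 CPM in the Raptor knockout and 234, 257, 204 and 349 CPM in wild type. The groups overlapped (log2 fold change 0.26 ± 0.16, edgeR adjusted p = 0.229, double knockout against wild type). Without wild-type replicate 4 it was called higher in the double knockout (log2 fold change 0.44, edgeR adjusted p = 0.00978). Slc2a1 (GLUT1), the transporter of most tissues, stood at 3.48, 4.58, 4.24 and 2.33 CPM in the double knockout, 4.87, 4.87 and 5.87 CPM in the Raptor knockout and 4.83, 8.22, 8.39 and 5.41 CPM in wild type. It fell 1.82-fold in the double knockout (log2 fold change -0.86 ± 0.28, edgeR adjusted p = 0.0311), and all 4 libraries were below all wild-type libraries. The call ended when double-knockout replicate 1 or 4 or wild-type replicate 2 or 3 was left out (edgeR adjusted p = 0.0681 to 0.0953). It also ended with library totals in place of TMM (-0.64, edgeR adjusted p = 0.113). Slc2a3 (GLUT3), known from neurons and leukocytes, had only 2 to 22 counts in a library. Its levels were 2.21, 0.808, 0.530 and 1.45 CPM in the double knockout, 1.54, 2.17 and 1.76 CPM in the Raptor knockout and 5.06, 4.29, 2.30 and 4.73 CPM in wild type. It fell 3.25-fold in the double knockout (log2 fold change -1.70 ± 0.43, edgeR adjusted p = 0.00734), again with no overlap, and in the Raptor knockout the change was -1.13 ± 0.43, edgeR adjusted p = 0.081, and without wild-type replicate 3 it was called lower there too (-1.40, edgeR adjusted p = 0.0304).

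At the hexokinase step the level of the muscle isoform did not pass the test and the ubiquitous one was higher in the double knockout. Hk2, the insulin-regulated hexokinase of muscle, stood at 256, 215, 312 and 386 CPM in the double knockout, 280, 357 and 214 CPM in the Raptor knockout and 393, 415, 318 and 434 CPM in wild type. The groups overlapped, and the estimates were -0.42 ± 0.19, edgeR adjusted p = 0.11, in the double knockout and -0.46 ± 0.20, edgeR adjusted p = 0.131, in the Raptor knockout. Leaving out double-knockout replicate 4 or Raptor-knockout replicate 2 made it a fall (log2 fold change -0.57 and -0.66, edgeR adjusted p = 0.04 and 0.0458). On the deposited TPM the Raptor-knockout direction turned: Hk2 stood at 77.4 ± 11.2 TPM in the double knockout, 131 ± 30.1 TPM in the Raptor knockout and 118 ± 29.3 TPM in wild type, and limma on log2(TPM + 1) gave 0.15 in the Raptor knockout (limma adjusted p = 0.683) and -0.58 in the double knockout (limma adjusted p = 0.0614). Hk1, the hexokinase of most tissues, stood at 8.85, 10.2, 9.81 and 7.56 CPM in the double knockout, 6.67, 6.50 and 7.63 CPM in the Raptor knockout and 5.52, 4.65, 4.44 and 8.34 CPM in wild type. It rose 1.58-fold in the double knockout (log2 fold change 0.66 ± 0.23, edgeR adjusted p = 0.0449), with wild-type replicate 4 inside the double-knockout range. This call ended when any 1 of double-knockout replicates 1 to 3 or wild-type replicates 1 to 3 was left out (edgeR adjusted p = 0.0809 to 0.137). Some macrophage and fibroblast markers were higher in the double knockout, and also in the Raptor knockout, where Hk1 was not called. A part of these cells in the level of Hk1 was not tested. Gpi1, which turns glucose phosphate into fructose phosphate, stood at 700.4, 789, 699 and 908 CPM in the double knockout, 702, 734 and 652 CPM in the Raptor knockout and 427, 449, 417 and 703 CPM in wild type. It rose 1.55-fold in the double knockout (log2 fold change 0.63 ± 0.16, edgeR adjusted p = 0.00788). Wild-type replicate 4 was the only wild-type library to reach the knockout levels. The Raptor-knockout change was 0.48 ± 0.17, edgeR adjusted p = 0.063, and without wild-type replicate 4 it was 0.69 (edgeR adjusted p = 0.000355).

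The muscle phosphofructokinase Pfkm and 2 of the enzymes that set its activator, Pfkfb1 and Pfkfb3, were lower in both knockouts. Pfkm (ENSMUSG00000033065, GRCm38 chromosome 15, 98092589 to 98132451), the muscle phosphofructokinase, stood at 492, 581, 491 and 573 CPM in the double knockout, 665, 571 and 616 CPM in the Raptor knockout and 1002, 1020, 884 and 927 CPM in wild type. Every knockout library was below every wild-type library, with falls of 1.79-fold in the double knockout (log2 fold change -0.84 ± 0.11, edgeR adjusted p = 4.75e-05) and 1.55-fold in the Raptor knockout (log2 fold change -0.63 ± 0.12, edgeR adjusted p = 0.00193). The liver isoform Pfkl stood at 1.58 to 3.20 CPM in the double knockout, 2.35 to 2.56 CPM in the Raptor knockout and 1.79 to 3.61 CPM in wild type. The platelet isoform Pfkp stood at 4.11 to 9.16 CPM in the double knockout, 3.33 to 4.99 CPM in the Raptor knockout and 3.58 to 4.28 CPM in wild type. Neither of these minor isoforms was called in either knockout. Pfkfb1 (ENSMUSG00000025271, GRCm38 chromosome X, 150588229 to 150643878), the Pfkfb isoform known from liver and muscle, stood at 6.64, 5.93, 7.42 and 8.72 CPM in the double knockout, 6.67, 5.69 and 7.34 CPM in the Raptor knockout and 20.02, 23.6, 19.2 and 31.1 CPM in wild type. It fell 3.26-fold in the double knockout (log2 fold change -1.70 ± 0.21, edgeR adjusted p = 1.86e-05) and 3.56-fold in the Raptor knockout (log2 fold change -1.83 ± 0.23, edgeR adjusted p = 6.51e-05). The groups were far apart, and among libraries lacking Xist the double-knockout log2 fold change was -1.54 (edgeR adjusted p = 0.0448).

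Pfkfb3 (ENSMUSG00000026773, GRCm38 chromosome 2, 11471433 to 11554077), whose kinase activity far exceeds its phosphatase activity, stood at 72.4, 96.4, 88.8 and 91.8 CPM in the double knockout, 117, 69.03 and 72.5 CPM in the Raptor knockout and 375, 200.2, 121 and 156 CPM in wild type. All knockout libraries were below all wild-type libraries, although wild type itself spread over a wide range. The falls were 2.44-fold in the double knockout (log2 fold change -1.28 ± 0.32, edgeR adjusted p = 0.0112) and 2.46-fold in the Raptor knockout (log2 fold change -1.30 ± 0.35, edgeR adjusted p = 0.0245). The Raptor-knockout call ended without Raptor-knockout replicate 2 or 3 or wild-type replicate 2 (edgeR adjusted p = 0.0508 to 0.0998). Pfkfb4 stood at 20.5 to 29.9 CPM in the double knockout, 18.7 to 30.0 CPM in the Raptor knockout and 20.2 to 38.1 CPM in wild type and was not called in either knockout. Pfkfb2 had 2 to 5 counts in double-knockout, 4 to 6 in Raptor-knockout and 1 to 5 in wild-type libraries and was not tested. Fbp2, the muscle fructose bisphosphatase that opposes phosphofructokinase, stood at 70.5 to 111 CPM in the double knockout, 91.8 to 128 CPM in the Raptor knockout and 107 to 165 CPM in wild type. The double-knockout estimate was -0.46 ± 0.18, edgeR adjusted p = 0.0649, and without wild-type replicate 4 it was called lower (-0.55, edgeR adjusted p = 0.0296).

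**Figure D2:**
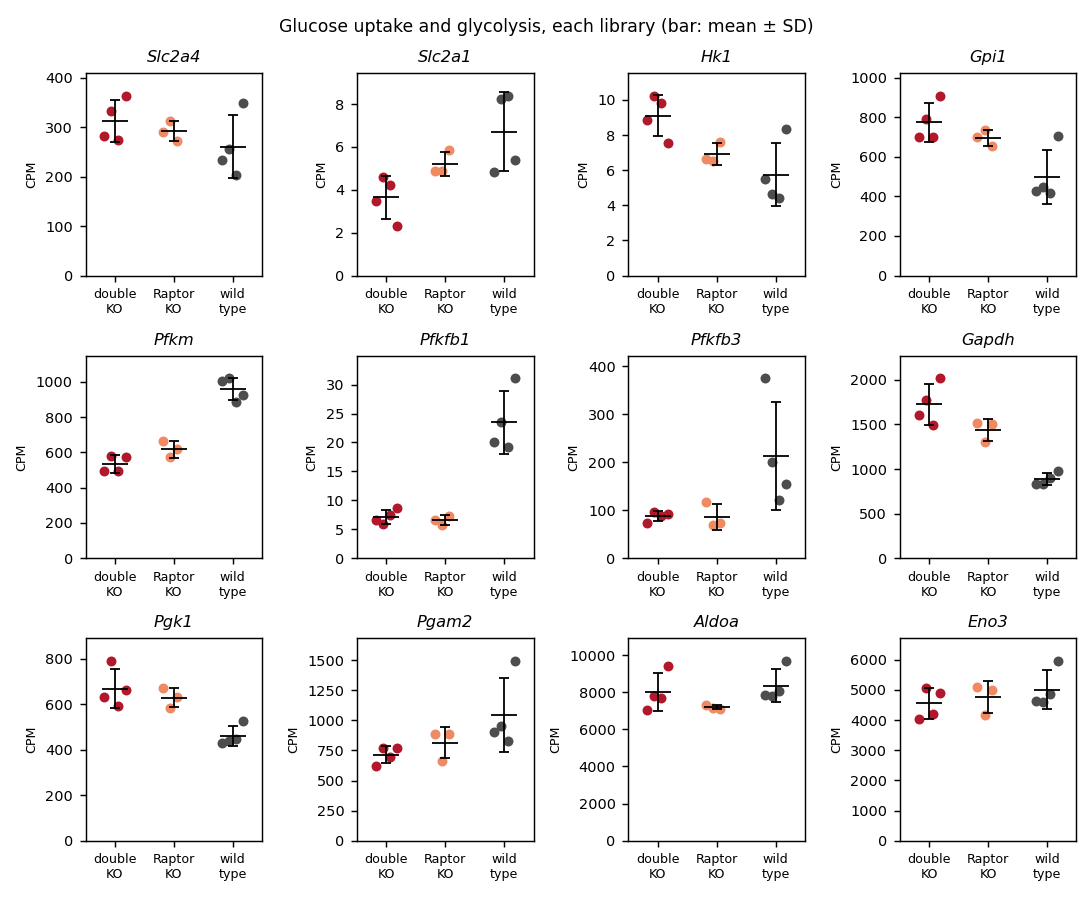
CPM (y axis, from 0) of 12 genes of glucose uptake and glycolysis in each library, with the double knockout at the left, the Raptor knockout in the middle and wild type at the right. Points are libraries and bars are mean ± SD (n = 4, 3 and 4); Pfkm, Pfkfb1 and Pfkfb3 lie lower and Gapdh and Pgk1 higher in both knockouts than in every wild-type library, while Eno3 overlaps and Aldoa overlaps between the double knockout and wild type and lies lower in the 3 Raptor-knockout libraries.

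From aldolase to enolase, Gapdh and Pgk1 were higher in both knockouts, and Aldoa, Tpi1 and Eno3 were not called in either. On the deposited TPM, which divide counts by transcript length, Aldoa was the highest of the 43 in each group, at 5419 ± 463 TPM in the double knockout, 4730 ± 80.1 TPM in the Raptor knockout and 5095 ± 348 TPM in wild type. Eno3 and Gapdh followed. Eno3, the muscle enolase, stood at 3121 ± 172 TPM in the double knockout, 3157 ± 280 TPM in the Raptor knockout and 3076 ± 272 TPM in wild type. Gapdh stood at 3279 ± 273 TPM in the double knockout, 2656 ± 182 TPM in the Raptor knockout and 1514 ± 109 TPM in wild type. By this measure Gapdh was near Eno3 in the double knockout and below it in wild type. By CPM, without division by length, Gapdh was below Eno3 in each group. Gapdh stood at 1725 CPM in the double knockout, 1442 CPM in the Raptor knockout and 886 CPM in wild type. Eno3 stood at 4552, 4757 and 5004 CPM in the same order. Each read is a tag from near a transcript's end, so dividing by length may itself shift levels between genes.

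Gapdh (ENSMUSG00000057666, GRCm38 chromosome 6, 125161715 to 125166467), the first oxidative step of glycolysis and a common reference gene, stood at 1612, 1778, 1490 and 2019 CPM in the double knockout, 1513, 1301 and 1511 CPM in the Raptor knockout and 829, 837, 904 and 975 CPM in wild type. It rose 1.95-fold in the double knockout (log2 fold change 0.96 ± 0.12, edgeR adjusted p = 3.03e-05) and 1.63-fold in the Raptor knockout (log2 fold change 0.70 ± 0.13, edgeR adjusted p = 0.00138). No knockout library overlapped wild type. Gapdh has many processed copies in the mouse genome, and its deposited values were not whole in any of the 11 libraries, so its level may hold reads shared out among copies. Pgk1 (ENSMUSG00000062070, GRCm38 chromosome X, 106187100 to 106203699), which makes the first ATP of the pathway, stood at 631, 792, 593 and 661 CPM in the double knockout, 672, 585 and 633 CPM in the Raptor knockout and 429, 438, 447 and 526 CPM in wild type. It rose 1.46-fold in the double knockout (log2 fold change 0.54 ± 0.12, edgeR adjusted p = 0.00358) and 1.37-fold in the Raptor knockout (log2 fold change 0.45 ± 0.13, edgeR adjusted p = 0.0238), with no overlap. The Raptor-knockout call ended without Raptor-knockout replicate 1 or 3 or wild-type replicate 3 (edgeR adjusted p = 0.0581 to 0.117). In the libraries without Xist its log2 fold change was 0.49 in the double knockout (edgeR adjusted p = 0.258) and 0.41 in the Raptor knockout (edgeR adjusted p = 0.115).

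Of the steps on either side, aldolase and triose phosphate isomerase were not called. Aldoa stood at 7014 to 9423 CPM in the double knockout, 7120 to 7311 CPM in the Raptor knockout and 7802 to 9691 CPM in wild type. All 3 Raptor-knockout libraries were below all wild-type libraries (-0.22 ± 0.13, edgeR adjusted p = 0.257), and the double knockout overlapped wild type. Tpi1 stood at 749 to 932 CPM in the double knockout, 823 to 927 CPM in the Raptor knockout and 814 to 961 CPM in wild type. Eno3 stood at 4038 to 5066 CPM in the double knockout, 4158 to 5110 CPM in the Raptor knockout and 4582 to 5964 CPM in wild type and was not called. Aldoc had 0 to 4 counts in a library. Phosphoglycerate mutase changed in its muscle isoform. Pgam2 stood at 620.1, 774, 695 and 774 CPM in the double knockout, 889.7, 665 and 889 CPM in the Raptor knockout and 900.4, 949, 829 and 1495 CPM in wild type. It fell 1.46-fold in the double knockout (log2 fold change -0.54 ± 0.17, edgeR adjusted p = 0.0279), with all 4 libraries below wild type. The call ended without double-knockout replicate 1 or 3 (edgeR adjusted p = 0.0686 to 0.0863) and with library totals (-0.30, edgeR adjusted p = 0.158). Pgam1, the isoform of most other tissues, stood at 21.5 to 25.97 CPM in the double knockout, 18.97 to 23.8 CPM in the Raptor knockout and 12.2 to 26.4 CPM in wild type. It was not called with all libraries, and without wild-type replicate 4 it was called higher in the double knockout (log2 fold change 0.69, edgeR adjusted p = 0.00379) and in the Raptor knockout (0.56, edgeR adjusted p = 0.0277).

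The ubiquitous enolase Eno1 could not be read alone. Eno1 (chromosome 4) has a retrogene copy, Eno1b (chromosome 18), and its deposited value was not whole in 10 of 11 libraries, as happens where reads are shared out between genes. How the reads fell between these copies is therefore uncertain. Eno1 alone, before rounding, stood at 7.45, 6.35, 3.66 and 6.85 CPM in the double knockout, 18.7, 26.2 and 18.2 CPM in the Raptor knockout and 6.07, 14.8, 21.7 and 5.44 CPM in wild type. Eno1b stood at 19.4, 28.7, 25.5 and 17.6 CPM in the double knockout, 11.9, 8.98 and 17.04 CPM in the Raptor knockout and 15.1, 7.69, 0 and 9.66 CPM in wild type. The double knockout was low for Eno1 and high for Eno1b, and wild-type replicate 3, the highest for Eno1 in wild type, was at 0 for Eno1b. Their sum was 26.9, 35.02, 29.2 and 24.4 CPM in the double knockout, 30.5, 35.2 and 35.2 CPM in the Raptor knockout and 21.2, 22.5, 21.7 and 15.1 CPM in wild type. All 7 knockout libraries were above all 4 wild-type libraries in the sum, which rose in the double knockout (log2 fold change 0.52, edgeR adjusted p = 0.0292) and in the Raptor knockout (0.74, edgeR adjusted p = 0.00813). Eno1 counted alone gave -0.98 ± 0.43, edgeR adjusted p = 0.111, in the double knockout and 0.79 ± 0.41, edgeR adjusted p = 0.202, in the Raptor knockout; without wild-type replicate 4 the first was a called fall (-1.24, edgeR adjusted p = 0.0355), and without wild-type replicate 3 the second was a called rise (1.29, edgeR adjusted p = 0.0184). The sum was chosen after the values were seen. Eno2, the neuronal enolase, had 1 to 6 counts in double-knockout, 5 to 13 in Raptor-knockout and 0 to 1 in wild-type libraries and was not tested.

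**Figure D3:**
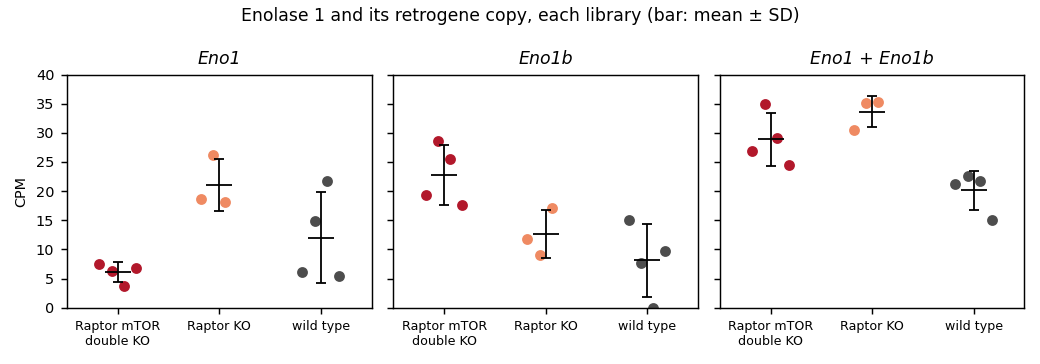
CPM (y axis, from 0, the same in each panel) of Eno1, of its retrogene copy Eno1b and of their sum in each library of the double knockout, the Raptor knockout and wild type. Points are libraries and bars are mean ± SD (n = 4, 3 and 4); the double knockout is low for Eno1 and high for Eno1b, and the sum is 24.4 CPM or more in every knockout library and 22.5 CPM or less in wild type.

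At the end of glycolysis Pkm and Ldha were not called, and Ldhb and both lactate transporters were called lower in the double knockout. The calls of Ldhb, Slc16a1 and Slc16a3 there ended with library totals and in each limma fit on TPM. So did the call of Slc16a3 in the Raptor knockout. Pkm, pyruvate kinase, stood at 1265 to 1603 CPM in the double knockout, 1277 to 1637 CPM in the Raptor knockout and 1402 to 2808 CPM in wild type, and Ldha, the lactate dehydrogenase subunit that favours lactate formation, at 1059 to 1349 CPM in the double knockout, 1090 to 1384 CPM in the Raptor knockout and 1319 to 1657 CPM in wild type. Neither was called; both had their highest level in wild-type replicate 4. Ldhb, the subunit of heart and oxidative fibres, stood at 53.1, 49.6, 55.4 and 38.7 CPM in the double knockout, 72.3, 68.2 and 66.3 CPM in the Raptor knockout and 86.98, 109, 44.1 and 109 CPM in wild type. It fell 1.77-fold in the double knockout (log2 fold change -0.82 ± 0.23, edgeR adjusted p = 0.0151). Wild-type replicate 3 lay within the double-knockout range, and the call ended without double-knockout replicate 4 or wild-type replicate 2 or 4 (edgeR adjusted p = 0.0532 to 0.0592). For the Raptor knockout the change was -0.33 ± 0.25, edgeR adjusted p = 0.376, and without wild-type replicate 3 it was called lower (-0.60, edgeR adjusted p = 0.0196).

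Of the monocarboxylate transporters, Slc16a3 (MCT4; ENSMUSG00000025161, GRCm38 chromosome 11, 120948480 to 120960868), which exports lactate from glycolytic fibres, stood at 77.1, 75.4, 76.9 and 113 CPM in the double knockout, 91.02, 72.3 and 79.6 CPM in the Raptor knockout and 111, 115.5, 104 and 171 CPM in wild type. It fell 1.46-fold in the double knockout (log2 fold change -0.55 ± 0.18, edgeR adjusted p = 0.0315) and 1.55-fold in the Raptor knockout (log2 fold change -0.63 ± 0.19, edgeR adjusted p = 0.0339). Double-knockout replicate 4 overlapped wild type, and no Raptor-knockout library did. The double-knockout call ended without double-knockout replicate 1, 2 or 3 or wild-type replicate 4 (edgeR adjusted p = 0.0657 to 0.0895), and the Raptor-knockout call without any 1 of its 3 libraries (edgeR adjusted p = 0.0604 to 0.102). Slc16a1 (MCT1), which takes lactate up in oxidative fibres, stood at 14.2, 12.4, 16.7 and 17.7 CPM in the double knockout, 22.8, 27.1 and 19.7 CPM in the Raptor knockout and 25.3, 21.1, 19.4 and 20.1 CPM in wild type. It fell 1.40-fold in the double knockout (log2 fold change -0.49 ± 0.17, edgeR adjusted p = 0.0459), with all 4 libraries below wild type. The call ended without any 1 of the 4 double-knockout libraries or wild-type replicate 1 or 2 (edgeR adjusted p = 0.0516 to 0.166). Its change in the Raptor knockout was 0.11 ± 0.18, edgeR adjusted p = 0.709.

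The carrier that admits pyruvate to the mitochondrion was lower in both of its subunits in the double knockout. Mpc1 (ENSMUSG00000023861, GRCm38 chromosome 17, 8282904 to 8297661) stood at 112, 103, 88.8 and 108 CPM in the double knockout, 150.2, 127 and 145 CPM in the Raptor knockout and 209, 253, 183 and 193 CPM in wild type. The 3 genotypes did not overlap, and the Raptor knockout lay between. Mpc1 fell 2.03-fold in the double knockout (log2 fold change -1.02 ± 0.13, edgeR adjusted p = 3.57e-05) and 1.49-fold in the Raptor knockout (log2 fold change -0.57 ± 0.14, edgeR adjusted p = 0.0105). Its Raptor-knockout call ended with library totals (-0.37, edgeR adjusted p = 0.0803). Mpc2, its partner, stood at 214, 249, 191 and 234 CPM in the double knockout, 319.5, 252 and 279 CPM in the Raptor knockout and 329.8, 366, 311 and 464 CPM in wild type. It fell 1.66-fold in the double knockout (log2 fold change -0.73 ± 0.14, edgeR adjusted p = 0.00126), with no overlap. In the Raptor knockout the change was -0.38 ± 0.15, edgeR adjusted p = 0.104, and without wild-type replicate 3 it was called lower (-0.49, edgeR adjusted p = 0.0384). The fall of Mpc1 in the double knockout held under each of the 20 alternatives, and that of Mpc2 under each except the libraries without Xist (-0.75, edgeR adjusted p = 0.151).

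The subunits of the pyruvate dehydrogenase complex itself were not called. Pdha1 stood at 183 to 199.7 CPM in the double knockout, 198 to 225 CPM in the Raptor knockout and 194 to 358 CPM in wild type, Pdhb at 248 to 323 CPM in the double knockout, 281 to 303 CPM in the Raptor knockout and 191 to 323 CPM in wild type and Dlat at 81.1 to 109 CPM in the double knockout, 96.9 to 115 CPM in the Raptor knockout and 83.99 to 121 CPM in wild type. Pdha1 was called lower in the double knockout without wild-type replicate 3 (-0.50, edgeR adjusted p = 0.0355). Pdhb was called higher in the double knockout (0.45, edgeR adjusted p = 0.00507) and the Raptor knockout (0.48, edgeR adjusted p = 0.00688) without wild-type replicate 4. Both phosphatases that switch it on were lower in the double knockout. Pdp1 (ENSMUSG00000049225, GRCm38 chromosome 4, 11958184 to 11966452), the calcium-sensitive phosphatase that activates the complex in muscle, stood at 7.90, 8.62, 12.2 and 16.6 CPM in the double knockout, 13.6, 16.8 and 17.6 CPM in the Raptor knockout and 38.7, 46.5, 23.9 and 46.4 CPM in wild type. Every knockout library was below wild type, with falls of 3.40-fold in the double knockout (log2 fold change -1.76 ± 0.25, edgeR adjusted p = 7.9e-05) and 2.41-fold in the Raptor knockout (log2 fold change -1.27 ± 0.26, edgeR adjusted p = 0.00321). Pdp2, the other phosphatase of the complex, stood at 1.58, 2.42, 3.71 and 4.07 CPM in the double knockout, 2.05, 4.87 and 3.23 CPM in the Raptor knockout and 6.21, 6.44, 6.09 and 6.99 CPM in wild type. It fell 2.15-fold in the double knockout (log2 fold change -1.11 ± 0.31, edgeR adjusted p = 0.0145), with no overlap, on 5 to 37 counts in a library. The Raptor knockout's change was -0.92 ± 0.33, edgeR adjusted p = 0.0638, and without Raptor-knockout replicate 2 it was called lower (-1.29, edgeR adjusted p = 0.0286).

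Of the kinases that switch the complex off, Pdk1 was lower in the double knockout and the others were not called. Pdk1 stood at 23.4, 15.1, 20.1 and 20.3 CPM in the double knockout, 24.6, 22.7 and 27.3 CPM in the Raptor knockout and 31.8, 28.96, 27.5 and 30.7 CPM in wild type. It fell 1.51-fold in the double knockout (log2 fold change -0.59 ± 0.16, edgeR adjusted p = 0.0103), with no overlap, and its change in the Raptor knockout was -0.26 ± 0.17, edgeR adjusted p = 0.312. With library totals the double-knockout call of Pdk1 ended (-0.355, edgeR adjusted p = 0.115). Pdk2, a main kinase of muscle, stood at 166, 180.2, 173 and 239 CPM in the double knockout, 175, 168 and 166 CPM in the Raptor knockout and 209.9, 208, 208 and 448 CPM in wild type. It was not called in the double knockout (-0.50 ± 0.23, edgeR adjusted p = 0.124) or the Raptor knockout (-0.66 ± 0.25, edgeR adjusted p = 0.0854), and without wild-type replicate 3 it was called lower in the Raptor knockout (-0.81, edgeR adjusted p = 0.0496). Pdk4, which rises on fasting, varied widely. Its levels were 7.27, 14.3, 6.10 and 6.39 CPM in the double knockout, 23.6, 15.2 and 36.99 CPM in the Raptor knockout and 17.3, 9.30, 145 and 3.38 CPM in wild type. Wild-type replicate 3 was far above the others, the groups overlapped, and the estimates were -2.40 ± 1.12, edgeR adjusted p = 0.155, in the double knockout and -0.84 ± 1.10, edgeR adjusted p = 0.65, in the Raptor knockout. Both rest on that library: without it the log2 fold changes were -0.25 (edgeR adjusted p = 0.778) in the double knockout and 1.28 (edgeR adjusted p = 0.125) in the Raptor knockout. Pdk3 had 2 to 10 counts in a library.

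**Figure D4:**
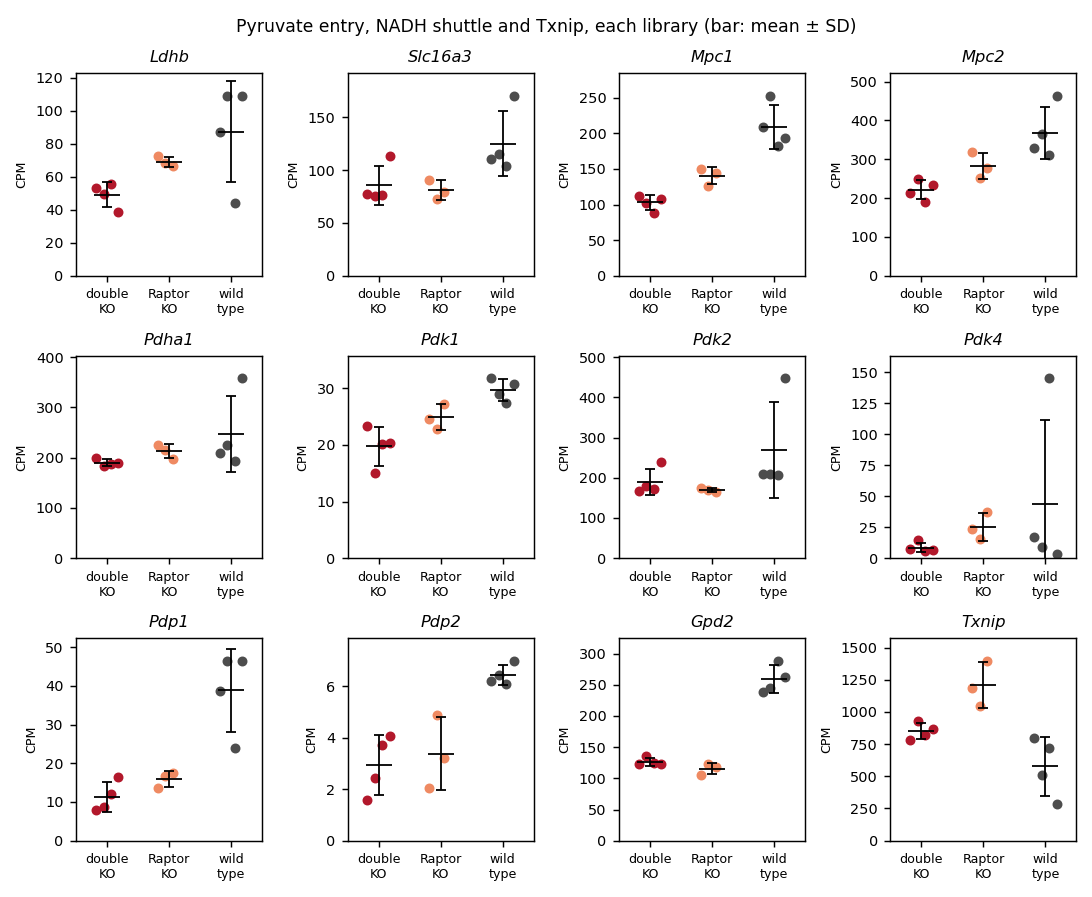
CPM (y axis, from 0) of 12 genes of lactate and pyruvate handling, the glycerol phosphate shuttle and Txnip in each library, with the double knockout at the left, the Raptor knockout in the middle and wild type at the right. Points are libraries and bars are mean ± SD (n = 4, 3 and 4; the lower bar of Pdk4 in wild type is cut at 0); Mpc1, Pdp1 and Gpd2 lie below every wild-type library in both knockouts, and Pdk4 shows 1 wild-type library at 145 CPM.

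The glycerol phosphate shuttle, which passes the reducing power made by Gapdh into the mitochondrion, was lower at its mitochondrial enzyme. Gpd2 (ENSMUSG00000026827, GRCm38 chromosome 2, 57237635 to 57370719) stood at 124, 137, 124 and 123 CPM in the double knockout, 106, 123 and 118 CPM in the Raptor knockout and 238, 246, 289 and 262 CPM in wild type. The knockouts were far below wild type and close to one another. Gpd2 fell 2.04-fold in the double knockout (log2 fold change -1.03 ± 0.11, edgeR adjusted p = 8.16e-06) and 2.24-fold in the Raptor knockout (log2 fold change -1.16 ± 0.13, edgeR adjusted p = 1.63e-05), the smallest adjusted p of the tested members in each comparison. Gpd1, the cytosolic enzyme of the shuttle, stood at 169 to 292 CPM in the double knockout, 167 to 216 CPM in the Raptor knockout and 217 to 325 CPM in wild type and was not called. Txnip, which restrains glucose uptake and is itself induced by glucose, stood at 785, 932, 818 and 871 CPM in the double knockout, 1185, 1043 and 1397 CPM in the Raptor knockout and 795, 511, 717 and 284 CPM in wild type. It rose 2.10-fold in the Raptor knockout (log2 fold change 1.07 ± 0.26, edgeR adjusted p = 0.0129), with no overlap, and the call ended without Raptor-knockout replicate 3 (0.95, edgeR adjusted p = 0.0567). In the double knockout the change was 0.56 ± 0.24, edgeR adjusted p = 0.109, with overlap, and without wild-type replicate 1 it was called higher (0.77, edgeR adjusted p = 0.0383).

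Ratios of 2 isoforms within a library do not depend on the scaling between libraries, and they were computed for 11 pairs as log2 of the count ratio, with 0.5 added to each count. In 4 pairs the double knockout and wild type did not overlap, with the smallest p that the exact permutation test of 4 against 4 libraries allows (0.0286, two-sided; adjusted p = 0.0786 over the 11 pairs). No pair passed the adjustment, which this number of libraries allows only where most pairs reach that smallest p. The log2 ratio of Hk1 to Hk2 was -4.96 ± 0.53 in the double knockout, -5.30 ± 0.49 in the Raptor knockout and -6.09 ± 0.31 in wild type (SD). That of Pfkp to Pfkm was -6.57 ± 0.41 in the double knockout, -7.19 ± 0.35 in the Raptor knockout and -7.88 ± 0.22 in wild type. For Pgam1 over Pgam2 it was -4.94 ± 0.18 in the double knockout, -5.25 ± 0.40 in the Raptor knockout and -5.92 ± 0.21 in wild type. In these 3 the ratio of the other isoform to the muscle isoform was higher in the double knockout than in wild type, by 2.20-fold, 2.48-fold and 1.98-fold. The ratio of Gpd2 to Gpd1 was -0.69 ± 0.28 in the double knockout, -0.75 ± 0.26 in the Raptor knockout and 0.07 ± 0.28 in wild type, which is 1.70-fold lower in the double knockout. Among the libraries lacking Xist the difference in Hk1 over Hk2 between the double knockout and wild type was 0.43 on the log2 scale, where all libraries gave 1.14. In the Raptor knockout 2 pairs, Pfkp to Pfkm and Pgam1 to Pgam2, had an exact p of 0.0286 against wild type (adjusted p = 0.126). Ldhb to Ldha and Slc16a1 to Slc16a3 overlapped between the double knockout and wild type (exact permutation p = 0.171 and 0.914).

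**Figure D5:**
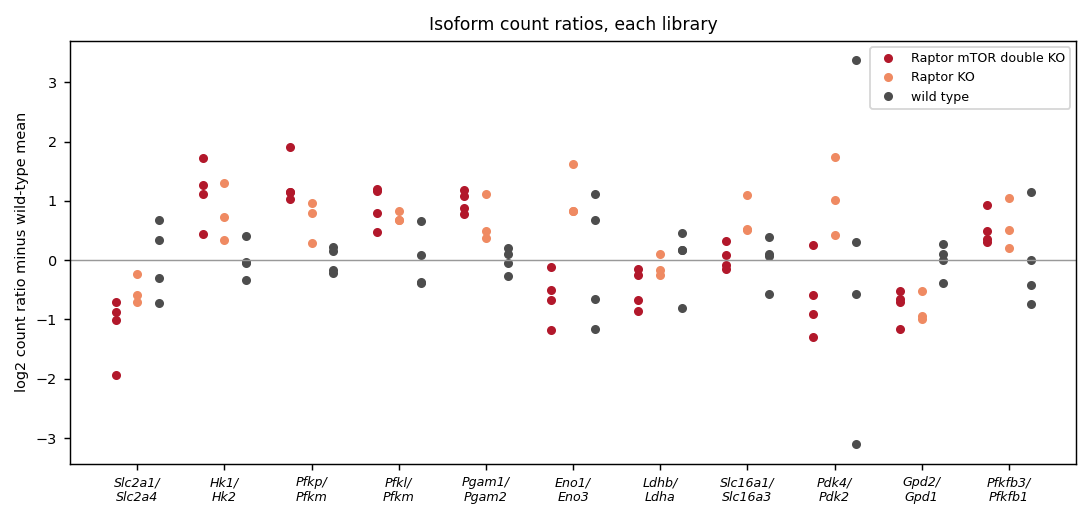
Log2 ratio of isoform counts for 11 pairs (x axis), shown as the difference from the wild-type mean of that pair (y axis), with 1 point per library and the double knockout, the Raptor knockout and wild type side by side. Hk1/Hk2, Pfkp/Pfkm and Pgam1/Pgam2 lie higher and Gpd2/Gpd1 lower in all 4 double-knockout libraries than in every wild-type library.

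The double knockout against the Raptor knockout asks what deleting mTOR beside Raptor adds. No member was called higher or lower, where 0.00952% of all tested genes were higher and 0.019% lower. At an unadjusted p under 0.05 there were 4 members of 39, beside 9.49% of all tested genes: Eno1, Slc16a1, Mpc1 and Mpc2. In each of these all 4 double-knockout libraries were below all 3 Raptor-knockout libraries. That adds no support, since these genes were picked on the same values. Slc2a1, Ldhb, Pdk4 and Txnip also lay lower without overlap, and Gpd2 higher, with an unadjusted p over 0.05. The share of all tested genes without overlap was not counted. Their log2 fold changes were -1.77 ± 0.44, edgeR adjusted p = 0.174, for Eno1, -0.60 ± 0.19, edgeR adjusted p = 0.254, for Slc16a1, -0.45 ± 0.14, edgeR adjusted p = 0.267, for Mpc1 and -0.35 ± 0.15, edgeR adjusted p = 0.475, for Mpc2. Eno1 was called lower by the DESeq2 Wald test (-1.77, DESeq2 adjusted p = 0.0133) and with only these 2 groups in the fit (-1.76, edgeR adjusted p = 0.00353), and it shares reads with Eno1b as described. Txnip was also called lower with only these 2 groups in the fit (-0.49, edgeR adjusted p = 0.0414). The median log2 fold change of the tested members was -0.07, beside 0.01 over all tested genes. Of the 2 sequencing runs, the smaller held double-knockout libraries alone. Xist was present in double-knockout replicates 1 to 3 and in no Raptor-knockout library. In this comparison genotype, sequencing run and the presence of Xist therefore cannot be fully told apart.

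Other genes of the pathway were described from lists, read against the shares of all tested genes given above. Among 19 further genes of glucose uptake, 15 were tested, with 1 higher and 5 lower in the double knockout and 0 higher and 5 lower in the Raptor knockout. Tbc1d1, a brake on GLUT4 vesicle release in muscle, stood at 28.5 ± 6.33 CPM in the double knockout, 28.01 ± 9.26 CPM in the Raptor knockout and 74.5 ± 6.88 CPM in wild type. It fell 2.62-fold (edgeR adjusted p = 8.48e-05) in the double knockout and 2.67-fold (edgeR adjusted p = 0.000329) in the Raptor knockout. Slc2a12, the glucose transporter GLUT12, fell 2.16-fold in the double knockout (edgeR adjusted p = 0.000951) and 1.83-fold in the Raptor knockout (edgeR adjusted p = 0.0126). Rab10, a GTPase of GLUT4 traffic known from adipocytes, fell 1.64-fold in the double knockout (edgeR adjusted p = 0.00427) and 1.67-fold in the Raptor knockout (edgeR adjusted p = 0.00895). Of 27 genes of side branches and of minor glycolytic isoforms, 17 were tested, with 3 higher and 7 lower in the double knockout and 0 higher and 3 lower in the Raptor knockout. Tigar, a phosphatase that lowers the activator of phosphofructokinase, stood at 33.5 ± 9.59 CPM in the double knockout, 56.7 ± 6.20 CPM in the Raptor knockout and 120.2 ± 22.7 CPM in wild type. Its falls were 3.58-fold in the double knockout (edgeR adjusted p = 6.64e-06) and 2.12-fold in the Raptor knockout (edgeR adjusted p = 0.00188). Sord, of the polyol pathway, fell 1.90-fold in the double knockout (edgeR adjusted p = 0.000195) and 1.76-fold in the Raptor knockout (edgeR adjusted p = 0.00179). Pgm2l1, which makes the hexose bisphosphate cofactor of phosphoglucomutase, fell 1.92-fold in the double knockout (edgeR adjusted p = 0.000731) and 1.82-fold in the Raptor knockout (edgeR adjusted p = 0.00401).

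Of 20 genes for other fates of pyruvate, 17 were tested, with 1 higher and 6 lower in the double knockout and 0 higher and 5 lower in the Raptor knockout. Gpt2, the mitochondrial alanine aminotransferase that interconverts pyruvate and alanine, stood at 23.6 ± 7.93 CPM in the double knockout, 16.2 ± 0.462 CPM in the Raptor knockout and 113 ± 18.04 CPM in wild type. It fell 4.79-fold in the double knockout (edgeR adjusted p = 1.28e-06) and 6.99-fold in the Raptor knockout (edgeR adjusted p = 1.47e-06). The cytosolic malic enzyme Me1 stood at 85.1 ± 17.2 CPM in the double knockout, 80.1 ± 12.8 CPM in the Raptor knockout and 207 ± 10.6 CPM in wild type. It fell 2.43-fold (edgeR adjusted p = 1.35e-05) in the double knockout and 2.58-fold (edgeR adjusted p = 4.55e-05) in the Raptor knockout. Me3, a mitochondrial malic enzyme, fell 1.82-fold in the double knockout (edgeR adjusted p = 0.00171) and 2.41-fold in the Raptor knockout (edgeR adjusted p = 0.000351). Of 8 further genes, those of the malate and aspartate shuttle together with Gpd1l, 7 were tested. Got1 alone was called, lower in the double knockout (1.78-fold, edgeR adjusted p = 0.00182). None of 10 tested genes of the Txnip family and of glucose sensing was called. Among 29 transcription regulators of these pathways, 26 were tested, with 2 higher and 6 lower in the double knockout and 1 higher and 6 lower in the Raptor knockout. Egln1, the main oxygen-sensing prolyl hydroxylase that marks hypoxia-inducible factor for destruction, stood at 60.2 ± 5.12 CPM in the double knockout, 80.4 ± 1.56 CPM in the Raptor knockout and 156 ± 17.5 CPM in wild type. Its relative Egln3, itself induced by hypoxia, stood at 58.8 ± 8.99 CPM in the double knockout, 54.7 ± 3.15 CPM in the Raptor knockout and 22.2 ± 6.73 CPM in wild type. Egln1 fell 2.59-fold in the double knockout (edgeR adjusted p = 1.6e-06) and 1.94-fold in the Raptor knockout (edgeR adjusted p = 0.000167), while Egln3 rose 2.63-fold in the double knockout (edgeR adjusted p = 4.98e-05) and 2.45-fold in the Raptor knockout (edgeR adjusted p = 0.000325). Klf15, a glucocorticoid-responsive regulator of muscle fuel use, fell 3.04-fold in the double knockout (edgeR adjusted p = 0.00117) and 3.46-fold in the Raptor knockout (edgeR adjusted p = 0.00196).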

How the data were processed

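Expected counts per gene were made by the authors, whose processing notes name fastp (0.20.0), STAR (2.7.0), RSEM (1.3.3) and the build GRCm38 (mm10) without stating their roles. They were deposited without normalization, in one table per sequencing run. The deposited TPM are the authors' transcripts-per-million and served only as an alternative and for levels between genes. The annotation release and the setting for strand are not given in the sources used here; gene positions and symbols are from GENCODE M21. Another 6 columns fitted no label and were left out.

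These expected counts were then rounded; 2.25% of values were not whole, and a library total moved by at most 30.2 counts. In R 4.3.3, edgeR 4.0.16 was run with filterByExpr by group, TMM and a robust quasi-likelihood fit of all 11 libraries without covariates; 10505 genes, with 99.54% of counts, were tested two-sided in 3 contrasts and called at a Benjamini-Hochberg adjusted p under 0.05. The biological coefficient of variation was 20.6%, with 8 residual degrees of freedom. CPM are given as single libraries or mean ± SD, and log2 fold changes with their SE. Aldoa had a second Ensembl row that was at 0 in all libraries. Isoform ratios used the exact permutation test over libraries, for pairs with a mean of at least 5 counts in each group. Alternatives used DESeq2 1.42.0 and limma 3.58.1 on TPM. The fit was tested on simulated data. Members, gene lists, tests and the naming rule (each member called in at least 1 comparison, and the up to 3 called genes of each other list with the smallest adjusted p in either knockout against wild type) were chosen with earlier results of these data known. The labels do not say more of how replicates were housed or handled, so p-values measure the spread between these mice.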

Additional observations from a re-analysis of the deposited data

Results flagged for a closer look

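In groups of 4 libraries, the highest or lowest library of a member was set against the other 3, and 12 of 78 groups had a library whose gap to the nearest of the others passed Dixon's limit. For independent groups of normally distributed values, chance alone gives about 1 in 20. These groups share the same libraries and are not independent, so an excess over chance was not tested. In wild type, replicate 4 was the library apart in 8 of them. There it stood at 703 CPM for Gpi1 (the others at 417 to 449), 38.1 CPM for Pfkfb4 (20.2 to 21.8), 9691 CPM for Aldoa (7802 to 8078) and 2808 CPM for Pkm (1402 to 1506). It also stood at 1657 CPM for Ldha (1319 to 1365), 171 CPM for Slc16a3 (104 to 115), 448 CPM for Pdk2 (208 to 210) and 325 CPM for Gpd1 (217 to 228). In each of the 8 it was the highest wild-type library.

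Pdk4 was at 145 CPM in wild-type replicate 3, where the others were at 3.38 to 17.3 CPM. In the double knockout, Pdk4 was at 14.3 CPM in replicate 2 (the others at 6.10 to 7.27). Slc16a3 was at 113 CPM in double-knockout replicate 4 (75.4 to 77.1), and Gpd2 at 137 CPM in double-knockout replicate 2 (123 to 124).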

How the results depend on the processing

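Of the 19 calls of the double knockout against wild type, Pfkfb1, Gapdh, Mpc1, Pdp1 and Gpd2 held in every alternative, and Pfkm, Pgk1 and Mpc2 in every one except the libraries without Xist. Of the 10 Raptor-knockout calls, Pfkm, Pfkfb1, Gapdh, Pdp1 and Gpd2 held in every alternative. No call changed direction. In the double knockout Slc16a1 lost its call in 15 of the 20 alternatives, Hk1 in 13, Slc2a1 in 12, Slc16a3 in 11 and Pgam2 and Ldhb in 10 each. The calls of Slc2a1, Pgam2, Ldhb, Slc16a1, Slc16a3 and Pdk1 there ended with library totals and in each TPM fit. Eno1, not called alone, went to 0.52 (edgeR adjusted p = 0.0292) in the double knockout when summed with Eno1b, since the sum adds the reads given to the copy.

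Members higher in the double knockout were 4 in the reported fit. They were 8 with library totals, 7 with limma on log2 TPM with a pseudocount of 1 or 0.1, 2 with sequencing run as a covariate, 2 without the smaller run and 1 in the libraries without Xist. Members lower there were 15 in the reported fit, 9 with library totals, 7 with each of the 3 TPM fits (pseudocount 1, 0.1, and 1 with no filter), 8 with Xist as a covariate and 5 in the libraries without Xist. In the Raptor knockout 5 were higher with library totals and with each TPM fit, against 3, and 4 were lower with TPM and no filter, against 7. Between the knockouts 2 were lower with only those groups fitted and 1 by the DESeq2 Wald test, against 0. Counts over all tested genes moved too. In the double knockout library totals gave 2421 higher and 844 lower. There limma on log2 TPM with a pseudocount of 1 gave 1766 and 779, against 1367 and 1435 in the reported fit. Between the knockouts, 92 genes were lower with only those groups fitted and 43 by the DESeq2 Wald test, against 2. The cause was not tested. With a library left out, the double knockout had 3 to 7 members higher and 11 to 15 lower. Over all tested genes it then had 1009 to 1655 higher and 1133 to 1689 lower. The Raptor knockout had 1 to 6 members higher and 5 to 11 lower, beside 556 to 1203 and 584 to 1210 of all tested genes. No paired analysis was possible because the labels give no shared replicate numbers. At 2791339 counts in the smallest library, genes such as Slc2a3 (2 to 22 counts in a library) and Pdp2 (5 to 37) rest on few reads. In the double knockout against wild type, Slc2a3 was tested in 14 alternatives and Pdp2 in 18, where the other called members had 20. Neither was tested in the TPM fits with a filter, so both are missing from the counts of members lower in those fits. Slc2a3 was left untested in further alternatives as well, so a smaller count there can come from the filter and not from a lost call.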
